A study of Mus musculus with 4 samples.

Results

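Inhibitory receptors and the phosphatases that act behind them were followed in unstimulated B220+ splenocytes of mice with or without a deletion in MIZ-1 (Zbtb17), a zinc finger transcription factor with a POZ domain. The 10 genes, Cd22, Siglecg, Cd72, Pirb, Lair1, Ptpn6, Ptpn22, Ptprc, Csk and Inpp5d, were taken by name from a table of raw read counts with 41214 genes. All 10 had a row in that table. RNA-seq had been made from 2 libraries of MIZ-1WT and 2 libraries of MIZ-1DPOZ mice, all on a C57BL/6 background and described as biological duplicates. In MIZ-1DPOZ mice, Mb1-Cre removed the floxed POZ domain of Miz-1, and this Cre is an insertion in Cd79a that is active only in B cells. Whether the MIZ-1WT mice carried the Cre or the floxed alleles, and whether mice were pooled, is not stated in the sources used here. Cells were selected on B220, an isoform of CD45 that is itself a product of Ptprc, and gene counts do not separate the isoforms of that gene.

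Inhibitory receptors of B cells carry tyrosine motifs in their cytoplasmic tails that SRC family kinases such as LYN phosphorylate when the B cell receptor is engaged. The phosphorylated motifs bind the protein tyrosine phosphatase SHP-1, encoded by Ptpn6, or the inositol phosphatase SHIP-1, encoded by Inpp5d, which then dampen signalling. CSK adds, and CD45 removes, a phosphate on the inhibitory tyrosine of SRC family kinases, and the phosphatase PEP, encoded by Ptpn22, is a partner of CSK.

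The libraries held between 43026814 and 46387209 reads assigned to genes. Counts of Zbtb17 itself were lower in MIZ-1DPOZ, with a log2 fold change of -0.32 (edgeR, adjusted p = 0.00857). The deletion removes part of this gene, and gene counts do not separate lost exons from lower expression. The MIZ-1WT libraries held 49 and 60 counts of Xist and the MIZ-1DPOZ libraries 38145 and 40838. All 4 Y-linked genes examined were lower in MIZ-1DPOZ, so sex and genotype cannot be told apart. The Y-linked genes were not absent in MIZ-1DPOZ. They summed to 38.1 and 39.3 CPM (reads of a gene scaled to a common library size) there, against 848 and 844 CPM in MIZ-1WT. The source of this remaining Y-linked RNA was not tested. Of 16 macrophage markers, 16 were higher in MIZ-1DPOZ, with a median log2 fold change of 2.00. Their summed level was 949 and 1260 CPM in MIZ-1WT against 5640 and 3566 in MIZ-1DPOZ, and none was at 0 in any library. Of 10 pan-B cell genes, 8 were lower and 1 was higher, with a median of -0.25, and their sum went from 10683 and 10905 CPM to 9186 and 9590. Of all tested genes, 21.1% were higher and 18.9% lower by the test described below. The marker lists were chosen with earlier results of these data known, so their counts are descriptive. In bulk RNA, fewer cells of a type and less RNA per cell cannot be told apart.

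Of the 10 genes, 6 were a little lower in MIZ-1DPOZ, and 1 receptor, Lair1, rose by more than any other of them moved. The test was the quasi-likelihood test of edgeR over 14554 genes, with p adjusted by Benjamini and Hochberg and a threshold of 0.05, and fold changes are MIZ-1DPOZ over MIZ-1WT on the log2 scale. Those that passed the test as lower were 6 (Siglecg, Cd72, Ptpn6, Ptprc, Csk and Inpp5d), 1 passed as higher (Lair1), and 3 did not pass (Cd22, Pirb and Ptpn22). Across all tested genes 40.0% passed, 18.9% as lower and 21.1% as higher. The median of the 10 genes was -0.22, against -0.01 over all tested genes. The lower members moved little: with the fold limit of 0.6 used in the study and an unadjusted p of 0.05, only Lair1 remained of the 10, whereas 20.3% of all tested genes met that limit. Both MIZ-1DPOZ libraries lay below both MIZ-1WT libraries for 7 of the 10 genes and above them for 2, which 37.6% and 37.2% of all tested genes did respectively. Each of these counts rests on 2 libraries per genotype.

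The lower calls, from -0.48 to -0.19, lay around the pan-B cell median of -0.25. When the libraries were scaled to the summed counts of the pan-B cell list, the median of all tested genes moved up by 0.20, and the members moved up with it. Ptpn6 was then the only member called lower, at -0.28, and Lair1 and Ptpn22 were called higher. Siglecg was at -0.14, Cd72 at -0.08, Csk at -0.05, Ptprc at -0.03 and Cd22 at -0.02 on that scale, still below 0, and none of them passed. Pirb, at 0.0011, and Inpp5d, at 0.0073, changed sign. Calls over all genes also shifted, from 52.8% higher among those past the threshold to 84.6%. Without either one of the MIZ-1WT libraries the number of members called lower dropped from 6 to 1, Ptpn6. The fold changes of the 5 genes that lost their call then ran from -0.35 to -0.19, and calls over all genes dropped as well, from 5822 to 2204 without replicate 1 and 2825 without replicate 2.

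**Figure D1:**
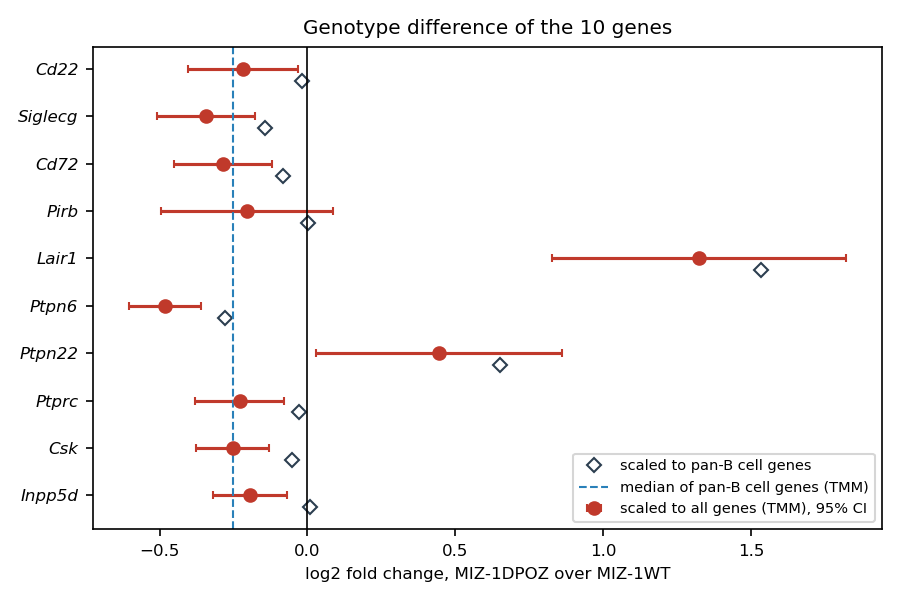
Log2 fold change of MIZ-1DPOZ over MIZ-1WT (horizontal axis) for each of the 10 genes, with filled circles and 95% confidence intervals for scaling to all genes (TMM), open diamonds for scaling to pan-B cell genes and a dashed line at the median of those genes, -0.25. The intervals of 7 genes lie left of 0 and that of Pirb crosses it, Lair1 stands apart at 1.32, and with the pan-B scaling most diamonds lie near 0, with Pirb and Inpp5d just above it.

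Among the receptors, Siglecg and Cd72 were lower, Lair1 was higher, and Cd22 and Pirb did not pass. Siglec-G and CD22 are the sialic acid binding lectins of B cells, and both can restrain the B cell receptor. Siglecg (ENSMUSG00000030468, chr7:43408204-43418358, plus strand, GRCm38) was measured at 569 and 574 CPM in MIZ-1WT and at 424 and 477 CPM in MIZ-1DPOZ. The groups did not overlap, and the means were 571 ± 2.99 against 450.4 ± 38.0 CPM (SD, n = 2 here and for every mean that follows). The fold change of Siglecg was -0.34 ± 0.07 (SE, as for each fold change given with an error), with an adjusted p of 0.0122 by edgeR.

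CD22 is the lectin found on nearly all mature B cells. Cd22 (ENSMUSG00000030577, chr7:30865402-30880342, minus strand) stood at 1070 and 1117 CPM in MIZ-1WT and at 880 and 1001 CPM in MIZ-1DPOZ. Both MIZ-1DPOZ values lay below both MIZ-1WT values, but the MIZ-1DPOZ libraries differed from each other by nearly as much as the genotypes did. Its value of -0.22 ± 0.08 had a confidence interval from -0.40 to -0.03 and did not pass after adjustment (edgeR, unadjusted p = 0.0290, adjusted p = 0.0657). It passed with DESeq2, without a filter on counts, with a replicate block and, at -0.30, without replicate 2 of MIZ-1DPOZ. Without replicate 1 of MIZ-1DPOZ it was at -0.13 and did not pass (edgeR, adjusted p = 0.188).

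CD72 is a lectin-like receptor that binds SHP-1 and also semaphorin 4D. Cd72 (ENSMUSG00000028459, chr4:43446462-43454628, minus strand) was at 454 and 489 CPM in MIZ-1WT and at 405 and 369 CPM in MIZ-1DPOZ. The groups were separate, with means of 471 ± 24.2 and 387 ± 25.6 CPM. The fold change was -0.29 ± 0.07 with an adjusted p of 0.0206 by edgeR. Exons of Cd72 share 1423 bases with those of Tesk1 on the opposite strand, which held from 1362 to 1861 counts per library against 16188 to 20541 for Cd72, and the strand setting of the counting is not stated.

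**Figure D2:**
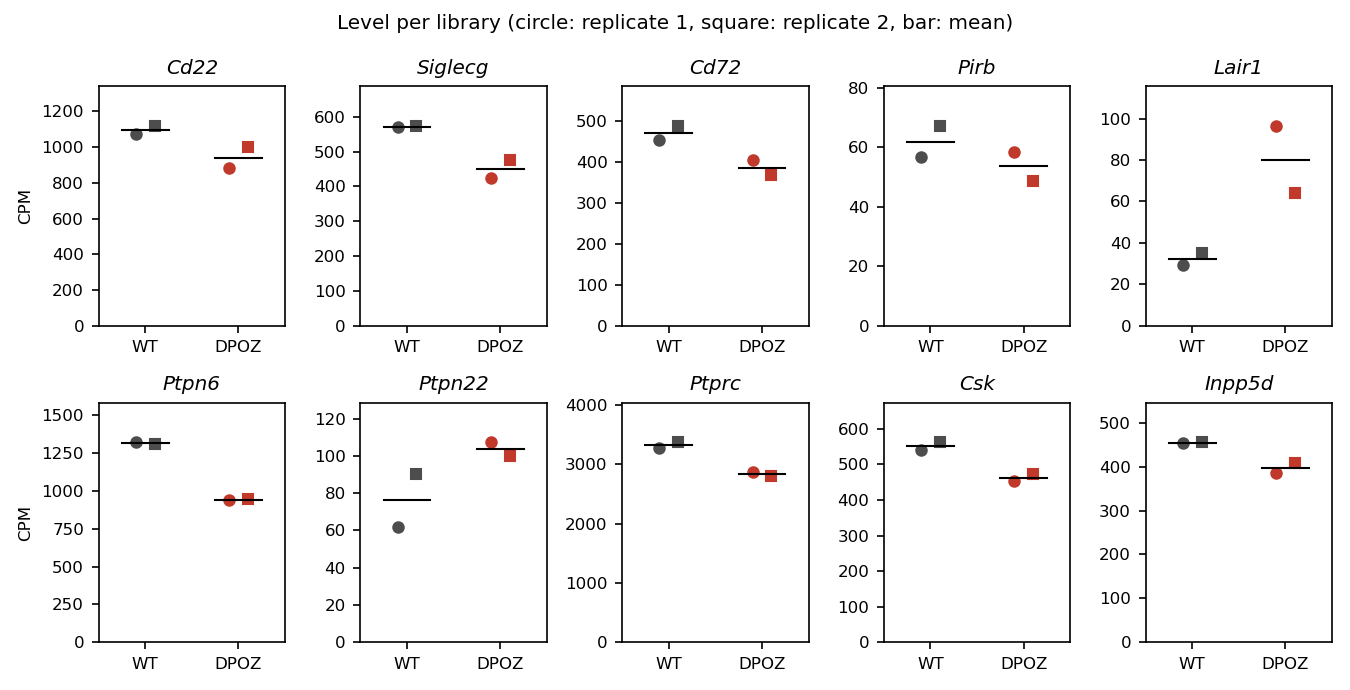
Level in CPM, scaled to all genes (vertical axis, from 0), of each of the 10 genes in each of the 4 libraries, with circles for replicate 1, squares for replicate 2 and bars for the mean of a genotype (WT, MIZ-1WT; DPOZ, MIZ-1DPOZ). The 2 MIZ-1DPOZ points lie below both MIZ-1WT points for 7 genes and above them for Lair1 and Ptpn22, and the points overlap for Pirb.

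PIR-B and LAIR-1 are inhibitory receptors that B cells share with myeloid cells, PIR-B binding major histocompatibility complex class I molecules and LAIR-1 binding collagens. Pirb (ENSMUSG00000058818, chr7:3711409-3720391, minus strand) was at 56.6 and 67.2 CPM in MIZ-1WT and at 58.6 and 48.8 CPM in MIZ-1DPOZ. Its groups overlapped, and it was the only member for which they did. A fold change of -0.20 ± 0.12 with an interval from -0.49 to 0.09 left Pirb short of the threshold (edgeR, adjusted p = 0.213). Single libraries moved this value: it was -0.34 and passed without replicate 1 of MIZ-1DPOZ (adjusted p = 0.0475), and was -0.07 without replicate 2. Without replicate 1 of MIZ-1WT it was -0.32, and without replicate 2 of MIZ-1WT -0.08, neither of which passed. Pirb belongs to a family of near-identical genes between which short reads may be split, so its value is uncertain. Chosen after their values were seen, 3 neighbours of the family moved apart: Gm14548 was higher at 1.75 (edgeR, adjusted p = 0.00224), Gm15448 lower at -0.55 (adjusted p = 0.0373), and Pira2, an activating relative, stood at 0.15 (adjusted p = 0.647).

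Lair1 (ENSMUSG00000055541, chr7:4003402-4063204, minus strand) was the member with the lowest level per length in MIZ-1WT and the only one called higher. Its promoter is shown because Lair1 had the largest rise of the 10 genes; the 250 bases before the RefSeq start were read on the minus strand (GRCm38.p6, chr7:4063205-4063454). Capitals mark the PU.1-type motif GAGGAA, here as its reverse complement TTCCTC, 26 bases before the start.
Lair1 promoter: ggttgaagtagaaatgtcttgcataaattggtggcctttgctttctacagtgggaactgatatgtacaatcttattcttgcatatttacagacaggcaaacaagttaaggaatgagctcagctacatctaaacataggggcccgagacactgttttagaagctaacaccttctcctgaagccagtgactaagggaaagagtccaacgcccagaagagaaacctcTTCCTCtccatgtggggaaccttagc

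The MIZ-1WT libraries held 1271 and 1471 counts of Lair1 and the MIZ-1DPOZ libraries 4589 and 2812. Levels were 29.1 and 35.0 CPM in MIZ-1WT against 96.4 and 64.1 CPM in MIZ-1DPOZ, with no overlap. Replicate 1 of MIZ-1DPOZ was the highest library by a wide margin. Lair1 rose 2.50-fold, from 32.1 ± 4.14 to 80.2 ± 22.9 CPM (log2 fold change 1.32 ± 0.20, edgeR, adjusted p = 0.00567). The call held in all 11 alternative fits, in which the fold change ran from 1.00 to 1.60 with an adjusted p of at most 0.0468.

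Macrophage markers, like Lair1, were higher in both MIZ-1DPOZ libraries. With 4 libraries in 2 groups, likeness between genes across libraries cannot be ranked. Relative to the MIZ-1WT mean, Lair1 stood at 0.909 and 1.09 in MIZ-1WT and at 3.01 and 2.00 in MIZ-1DPOZ. The summed macrophage markers stood at 0.859, 1.14, 5.11 and 3.23 in the same order, so that both were highest in replicate 1 of MIZ-1DPOZ. The macrophage genes with the highest levels were Vcam1, an adhesion molecule (305 to 1207 CPM, log2 fold change 1.98, edgeR, adjusted p = 0.00376), Slc40a1, the iron exporter (102 to 592 CPM, 2.54, adjusted p = 0.00260), and Mrc1, the mannose receptor (115 to 466 CPM, 2.02, adjusted p = 0.00178). Pirb, which myeloid cells also carry, stood at 0.915 and 1.09 in MIZ-1WT and at 0.947 and 0.788 in MIZ-1DPOZ. Its reads may be split between near-identical genes, so these Pirb values are uncertain. The part of macrophage RNA in the rise of Lair1 was not tested.

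**Figure D3:**
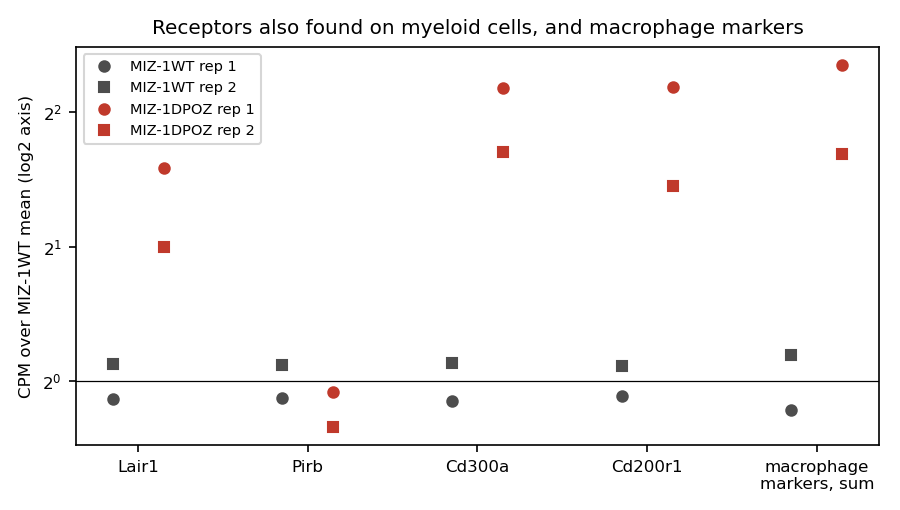
Level of 4 receptors that myeloid cells also carry and of the summed macrophage markers in each library, as CPM over the MIZ-1WT mean (vertical log2 axis; circles, replicate 1; squares, replicate 2). Lair1, Cd300a, Cd200r1 and the summed markers are all highest in replicate 1 of MIZ-1DPOZ, with Lair1 at 3.01 and the markers at 5.11. Pirb stays between 0.788 and 1.09 in all 4 libraries, and its values are uncertain because near-identical genes may split its reads.

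Among the 5 downstream members, which are the phosphatases and the kinase Csk, 4 passed as lower, against 18.9% of all tested genes. With the pan-B cell scaling, Ptpn6 was the only one of them still called lower. Ptpn6, which encodes SHP-1, the phosphatase recruited by most of the receptors above, had the largest fall of the 10 genes. Its promoter is printed for comparison with that of Lair1 (ENSMUSG00000004266, gene at chr6:124720707-124738714, minus strand; 250 bases before the RefSeq start, GRCm38.p6, chr6:124738710-124738959). It has no GAGGAA on either strand and therefore no capitals. Only this exact string was searched, so other forms of PU.1 sites are not covered. Only this RefSeq start, at the outer end of Ptpn6, was examined. Which start B cells use was not tested. The GC content of the stretch from Ptpn6, 63.2%, compares with 44.0% in the stretch from Lair1.
Ptpn6 promoter: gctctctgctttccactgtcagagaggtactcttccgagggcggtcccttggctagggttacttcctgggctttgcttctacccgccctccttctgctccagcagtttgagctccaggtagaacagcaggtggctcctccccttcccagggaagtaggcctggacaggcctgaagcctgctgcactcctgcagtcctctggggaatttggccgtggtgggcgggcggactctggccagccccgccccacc

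Ptpn6 was at 1317 and 1310.0 CPM in MIZ-1WT and at 939 and 943 CPM in MIZ-1DPOZ. Replicates were nearly equal within each genotype, and the genotypes were far apart by comparison. Ptpn6 fell by 28.4%, from 1313 ± 4.93 to 941 ± 3.25 CPM (log2 fold change -0.48 ± 0.05, edgeR, adjusted p = 0.00202). It kept its call in all 11 alternatives, in which the fold change ran from -0.49 to -0.28 with an adjusted p of at most 0.0241.

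SHIP-1, the other main effector, turns the product of PI3 kinase into a form that no longer recruits some of its targets. Inpp5d (ENSMUSG00000026288, chr1:87620312-87720507, plus strand) was at 454 and 455 CPM in MIZ-1WT and at 386 and 409 CPM in MIZ-1DPOZ. The groups were separate but the shift was the smallest of all lower calls, at -0.19 ± 0.05 (edgeR, adjusted p = 0.0285), and it turned to 0.0073 with the pan-B cell scaling. The call was also lost in 5 further alternatives, among them a filter on a mean of 30 RPM.

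CD45 and CSK act on the same inhibitory tyrosine in opposite directions, and the genes of both were lower. Ptprc (ENSMUSG00000026395, chr1:138062861-138175708, minus strand), which encodes CD45, was at 3272 and 3364 CPM in MIZ-1WT and at 2862 and 2798 CPM in MIZ-1DPOZ. The groups did not overlap, and Ptprc, the most abundant of the 10 genes by CPM, had a fold change of -0.23 ± 0.06 (edgeR, adjusted p = 0.0306). This call was lost when any 1 of the 4 libraries was left out, with an adjusted p from 0.0623 to 0.139, while the fold change stayed between -0.25 and -0.20.

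Csk (ENSMUSG00000032312, chr9:57626646-57653631, minus strand) was at 541 and 561 CPM in MIZ-1WT and at 452 and 473 CPM in MIZ-1DPOZ. The groups were separate, and the fold change of -0.25 ± 0.05 passed (edgeR, adjusted p = 0.0129). The balance of the pair was taken as the ratio of Csk to Ptprc counts per kilobase of exon, which needs no scaling between libraries. This ratio was 0.810 and 0.818 in MIZ-1WT and 0.774 and 0.828 in MIZ-1DPOZ. Its size depends on the lengths used for the genes, whereas the log2 difference between genotypes does not. The groups overlapped, and the difference of -0.02 on the log2 scale gave a p of 1.0 in a two-sided exact permutation test, in which 2 libraries against 2 cannot go below 0.33. Without replicate 1 of MIZ-1DPOZ the difference was 0.02.

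PEP, the lymphoid phosphatase encoded by Ptpn22, removes activating phosphates from SRC family kinases and their targets. Ptpn22 (ENSMUSG00000027843, chr3:103859795-103912247, plus strand) was at 61.9 and 90.3 CPM in MIZ-1WT and at 107 and 100.04 CPM in MIZ-1DPOZ. Both MIZ-1DPOZ libraries lay above both MIZ-1WT libraries, but the MIZ-1WT libraries differed from each other by 0.54 on the log2 scale. That spread is wider than the genotype difference of 0.44 ± 0.17, whose interval ran from 0.03 to 0.86 (edgeR, unadjusted p = 0.0399, adjusted p = 0.0835). Ptpn22 passed without a filter on counts, with the pan-B cell scaling, at 0.65, and without replicate 2 of MIZ-1WT, at 0.74. Without replicate 1 of MIZ-1WT it was at 0.20 and did not pass (edgeR, adjusted p = 0.165), nor did it pass with DESeq2 (adjusted p = 0.202).

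All 10 genes had promoter windows in RefSeq (GRCm38.p6), 14 in all, from 250 bases before to 50 bases after a start, and windows of 1 gene can overlap. GAGGAA or its reverse complement TTCCTC, a motif of PU.1 type, stood in 10 of the 14 windows and in at least 1 window of 8 of the 10 genes. It stood in 28.3% of all 32851 promoter windows. That share is per window, and no share per gene was computed to set beside the 8 of 10. A gene with more than 1 window has more chances to hold the motif. The octamer ATGCAAAT and the E-box CACGTG, both searched on both strands, were in 0 of the 14 windows, against 1.74% and 7.15% of all windows. TATAAA was in 2 of the 14, 1 each of Ptpn22 and Ptprc, against 13.6% of all. GAGGAA was present for members called lower, such as Siglecg and Csk, for Lair1, and for Pirb and Ptpn22, which were not called. It was absent from the windows examined for Ptpn6 and Cd22, and other starts of these genes were not searched. No binding data were used here, and a match of letters is a description of the window only.

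Levels were compared between genes as CPM per kilobase of all annotated exons. In MIZ-1WT, Ptpn6 was highest at 469 ± 1.76 CPM per kilobase, followed by Cd22 at 217 ± 6.63, Ptprc at 181 ± 3.55, Csk at 148 ± 3.85, Cd72 at 138 ± 7.07, Siglecg at 119 ± 0.621 and Inpp5d at 59.8 ± 0.0556. A wide gap separated these from Pirb at 13.8 ± 1.67, Ptpn22 at 11.2 ± 2.96 and Lair1 at 4.29 ± 0.554. Neighbours in this order did not overlap between libraries, except Pirb and Ptpn22. In MIZ-1DPOZ the first 7 kept their order, Ptpn22 at 15.3 ± 0.742 stood above Pirb at 12.01 ± 1.55, and Lair1 at 10.7 ± 3.06 overlapped Pirb. The order depends on the length used: with the longest coding transcript, a length chosen after the data were seen, Ptprc ranked first at 654 ± 12.8 CPM per kilobase and Ptpn6 was at 569 ± 2.13. All exons of Ptprc span 18313 bases and its longest coding transcript 5074.

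**Figure D4:**
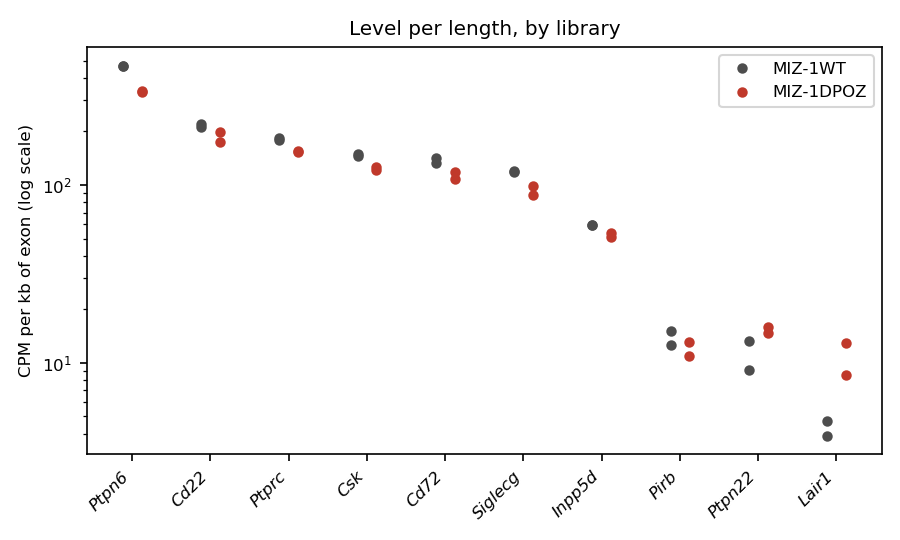
Level in CPM per kilobase of exon (vertical log axis) of the 10 genes in each library, in the order of the MIZ-1WT means, with grey points for MIZ-1WT and red points for MIZ-1DPOZ. The other 7 genes lie at 50.7 or more and Pirb, Ptpn22 and Lair1 at 15.8 or less, with Lair1 closest to Pirb in MIZ-1DPOZ.

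Other inhibitory receptors moved in both directions. Of 9 tested receptors, 3 were higher, 4 lower and 2 did not pass, with a median of 0.26. Fcrl5, an Fc receptor-like protein of B cell subsets, rose from 56.8 ± 1.48 to 105 ± 4.21 CPM (log2 fold change 0.89, edgeR, adjusted p = 0.000764). Fcgr2b, the inhibitory IgG receptor that recruits SHIP-1, fell from 201 ± 7.97 to 159 ± 7.11 CPM (-0.33, adjusted p = 0.00729). Cd300a, found on myeloid cells and on B cells, rose from 19.9 ± 2.75 to 77.6 ± 17.8 CPM (1.96, adjusted p = 0.00158). Cd200r1, the receptor for CD200, rose from 88 and 99 counts to 474 and 263 (1.87, adjusted p = 0.00532). Cd300a and Cd200r1 were highest in replicate 1 of MIZ-1DPOZ, as were Lair1 and the macrophage markers. So few libraries cannot rank likeness, and the part of macrophage RNA in the rise of Cd300a and Cd200r1 was not tested. Fcrl5 was nearly equal in the MIZ-1DPOZ libraries, at 4857 and 4740 counts. All 8 marginal zone B cell markers were higher, with a median of 0.71. So were 4 of 6 B-1 cell markers (median 0.63) and 5 of 6 plasma cell markers (median 0.67). Lower were 3 of 5 follicular markers (median -0.51) and 3 of 4 transitional markers (median -0.92). The shares over all tested genes were 21.1% higher and 18.9% lower. These lists were chosen with earlier results of these data known, so the counts are descriptive. The part of B cell subsets in the values of the receptors was not tested either.

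Of 20 other phosphatases and adaptors, 4 were higher, 4 lower and 12 did not pass, with a median of 0.03. Those counts are near the shares over all tested genes, 21.1% higher and 18.9% lower. Dok3, an adaptor that brings SHIP-1 to the B cell receptor, fell from 194 ± 11.03 to 137 ± 9.02 CPM (edgeR, log2 fold change -0.50, adjusted p = 0.00397). Ptpro, a receptor-type tyrosine phosphatase, rose from 1.26 ± 0.264 to 3.76 ± 0.123 CPM (1.58, adjusted p = 0.00393), and Ubash3b, a phosphatase that acts on SYK family kinases, from 13.4 ± 0.370 to 18.2 ± 0.627 CPM (0.44, adjusted p = 0.00970).

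Of the 5 SRC family kinases, on which CSK and CD45 act, 1 was higher and 4 did not pass. Fgr, a kinase of myeloid cells and some B cells, rose from 48.5 ± 0.630 to 78.6 ± 12.4 CPM (edgeR, log2 fold change 0.70, adjusted p = 0.00593). It held 4160 and 3069 counts in the MIZ-1DPOZ libraries. Lyn, the kinase that phosphorylates the inhibitory motifs, stood at -0.06 (adjusted p = 0.301), Blk at -0.10 (adjusted p = 0.157) and Fyn at -0.07 (adjusted p = 0.363). Of the 8 activating targets of the pathway, 2 were higher and 5 lower, with a median of -0.21. Cd79a, the signalling chain of the receptor in which Mb1-Cre is inserted, had -1.44 (edgeR, adjusted p = 0.00157), Btk -0.40 (adjusted p = 0.00822), Syk -0.23 (adjusted p = 0.0219) and Cd81, a tetraspanin, 0.45 (adjusted p = 0.00250). These values are scaled to all genes, and the pan-B cell median on that scale was -0.25. Values of this list with the pan-B cell scaling are not given here. Btk lies on chromosome X, and sex and genotype cannot be told apart in these libraries.

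Of 13 genes for ligands of the receptors and for enzymes that make or modify sialic acid, 10 were tested, and 2 were higher, 3 lower and 5 did not pass. Gne, the enzyme that starts sialic acid synthesis, fell from 50.4 ± 2.20 to 32.6 ± 0.144 CPM (edgeR, log2 fold change -0.63, adjusted p = 0.00178). Cmah, which makes the sialic acid form that mouse CD22 prefers, fell from 345 ± 6.80 to 184 ± 29.4 CPM (-0.91, adjusted p = 0.00276). B2m, the shared chain of the class I molecules that PIR-B binds, rose from 1021 ± 58.3 to 1239 ± 56.2 CPM (0.28, adjusted p = 0.0216). Of the collagens bound by LAIR-1, Col4a1 rose from 9 and 5 counts to 30 and 37 (2.15, adjusted p = 0.0115), and the 3 others were too low to test.

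**Figure D5:**
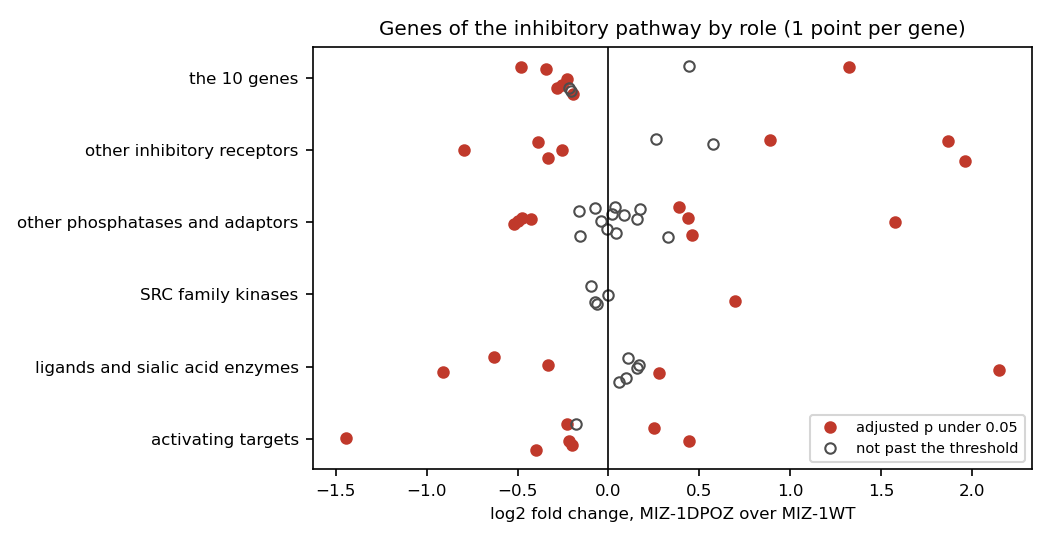
Log2 fold change of MIZ-1DPOZ over MIZ-1WT (horizontal axis) of every tested gene of 6 lists, with 1 point per gene, filled where the adjusted p by edgeR was under 0.05. Most of the 10 genes sit just left of 0 with Lair1 at 1.32, whereas the other receptors spread from -0.80 to 1.96, and 4 of the 5 SRC family kinases sit near 0; with the pan-B cell scaling Pirb and Inpp5d of the 10 changed sign.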

How the data were processed

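RNA was taken from B220+ splenocytes, depleted of ribosomal RNA and sequenced from both ends as stranded libraries. After trimming, the authors aligned the reads to mm10 (TopHat2 version 2.1.0 in the submitters' processing notes) and deposited the raw HTSeq counts per Ensembl gene, neither normalized nor pooled. The strand setting is not given in the sources used here. Uniquely assigned reads were counted. From 42.8% to 44.1% of the table's total stood in the counter's line for alignments that were not unique, which may not be a share of reads. How much of that line concerns Pirb was not measured. Reads that matched no gene feature made up 27.2% and 25.5% in MIZ-1WT and 21.6% and 21.1% in MIZ-1DPOZ. The reason for that difference was not tested. Summary lines of the counter were left out.

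Symbols and coordinates came from GENCODE for GRCm38, with 40254 of 41214 identifiers matched. Genes that reached 10 counts in 2 or more libraries were tested with the quasi-likelihood test of edgeR version 4.0.16 in R version 4.3.3, after TMM scaling (factors from 0.977 to 1.03). CPM uses TMM library sizes, and a tool the study names, DESeq2 (version 1.42.0 here), was an alternative. Samples were grouped by genotype as labelled. Named beside the 10 genes were up to 4 tested genes with the smallest p of each pathway list, Zbtb17, Xist, and up to 3 macrophage markers of highest CPM. A result that this rule would name is not reported here. The marker lists for other cells gave, as higher and lower calls of tested genes, 0 and 3 of 5 for follicular, 4 and 0 of 6 for B-1, 0 and 3 of 4 for transitional B cells, 5 and 0 of 6 for plasma cells, 4 and 0 of 6 for monocytes, 2 and 0 of 7 for neutrophils, 2 and 1 of 13 for T cells, 1 and 0 of 6 for NK cells, 1 and 0 of 5 for plasmacytoid and 3 and 1 of 6 for conventional dendritic cells, and 0 and 0 of 8 for erythroid cells. Lilrb4a and Ighd were not analysed here.

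The members and lists were chosen with earlier results of these data known. Alternatives were other size factors, DESeq2, other filters, a replicate block, no immunoglobulin genes, scaling to pan-B cell genes and leaving out each library. The fits were tested on simulated counts. Replicates differed beyond counting noise, with a chi-square per degree of freedom of 10.1 in MIZ-1WT and 22.0 in MIZ-1DPOZ, so none was counted as a repeat of another.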

Additional observations from a re-analysis of the deposited data

How the results depend on the processing

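The 10 log2 fold changes were refitted under 11 alternatives, which gave 110 values. Of these, 80 kept their direction and their side of the threshold, 20 lost the call, 8 gained one and 2 changed sign, Pirb at 0.0011 and Inpp5d at 0.0073 with the pan-B cell scaling. That scaling also left 1 member lower and 2 higher, 2 past the study's fold limit, and 4 lower and 12 higher among the other receptors, phosphatases and adaptors, against 8 and 7 in the fit reported. Without a filter on counts, 2 members were higher. At a mean of 30 RPM, 4 members were lower, and 2746 of 6052 genes passed. DESeq2 called 7 members lower.

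Leaving out 1 library gave from 1 to 6 members lower, 1 to 2 higher and 1 to 2 past the fold limit, and from 2 to 9 lower and 4 to 9 higher of the other receptors, phosphatases and adaptors. The single library left in a genotype was assumed to vary like the other genotype. Without replicate 1 of MIZ-1WT 2204 genes passed, and without replicate 2 of MIZ-1WT 2825, against 5822 with all 4 libraries. Without replicate 1 of MIZ-1WT, the other receptors, phosphatases and adaptors gave 5 lower and 4 higher, and without replicate 2 of MIZ-1WT 2 lower and 5 higher. The log2 difference of the Csk to Ptprc ratio ranged from -0.072 to 0.025, with the sign turned without replicate 1 of MIZ-1DPOZ. The cause of these shifts was not tested.

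The replicate numbers were not treated as pairs, since the differences between replicates 1 and 2 correlated between genotypes with r = -0.07 over 14554 genes. With a replicate block, 6 members were lower and 1 higher, with Cd22 gained (adjusted p = 0.0483) and Inpp5d lost (adjusted p = 0.0566), the ratio was -0.02, and 4732 genes passed. At its standard error of 0.12, the interval of Pirb spans values on both sides of 0.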
